A study of Mus musculus with 6 samples.

Results

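The 9 genes described here encode the signalling chains of the B-cell receptor (Cd79a, Cd79b), 3 surface proteins that raise or lower its signal (Cr2, Cd22, Cd72), and the kinases and adaptor that carry the signal inward (Blk, Syk, Btk, Blnk). They were chosen by symbol, and all 9 were found among the 31771 gene identifiers of a spleen count table and were among the 19573 genes tested. The table holds 6 RNA-seq libraries made from pieces of spleen, 1 for each of 6 mice of strain C57BL/6. The 3 mutants carried the genotype VEC-Cre, SB Transposase and onc2, and the 3 controls were labelled WT. VEC-Cre is Cre recombinase under the promoter of VE-cadherin (Cdh5), an endothelial adhesion molecule. SB Transposase moves the Sleeping Beauty transposon onc2 to new places in the genome, where it can activate or disrupt genes. As a model this has limits: blood cells that arise from embryonic endothelium also inherit VEC-Cre activity, insertions can differ from cell to cell and animal to animal, and a piece of spleen mixes many cell types. The labels give no age, litter or batch and have no field for sex, but the titles of mutants 1 and 2 begin with F and that of mutant 3 with M, letters that the labels do not explain. The series set out to learn how the cellular make-up of the mutant spleen differed.

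A B cell recognises antigen through surface immunoglobulin, which has almost no cytoplasmic tail. The signal is passed on by CD79A and CD79B, a pair of chains whose cytoplasmic tails carry tyrosine motifs (ITAMs). SRC-family kinases such as BLK and LYN phosphorylate these motifs, SYK docks on them, and SYK then phosphorylates the adaptor BLNK, which brings the TEC-family kinase BTK together with phospholipase C gamma 2. CR2 (CD21) binds complement fragments on antigen and, in a complex with CD81, lowers the amount of antigen a B cell needs. CD22, a lectin for sialic acid, and CD72 recruit phosphatases that dampen the signal. The spleen stores many mature B cells in follicles and the marginal zone, and CR2 is also made by the follicular dendritic cells of those follicles. SYK and BTK are not restricted to B cells: macrophages, mast cells and platelets use them below other receptors.

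The promoters of 4 of the genes are shown because they set the 2 members with the largest falls for which RefSeq (GRCm38.p6) holds an entry, Cr2 and Cd79a, against the 2 that did not pass the test, Cd72 and Btk. RefSeq entries matched 7 of the 9 members, and Cd79b and Blk are named only. Each sequence lies in the 250 bases before the RefSeq start and leaves out annotated exons, and capitals mark a match to 1 of 3 motifs. The windows are chr1:195176720-195176969 for Cr2, chr4:43454629-43454876 for Cd72 and chrX:134583141-134583390 for Btk, all on the minus strand, and chr7:24897247-24897380 on the plus strand for Cd79a. The Btk window lies within the bounds of the annotated Btk gene given below, whereas the other windows lie before their genes.
Cr2: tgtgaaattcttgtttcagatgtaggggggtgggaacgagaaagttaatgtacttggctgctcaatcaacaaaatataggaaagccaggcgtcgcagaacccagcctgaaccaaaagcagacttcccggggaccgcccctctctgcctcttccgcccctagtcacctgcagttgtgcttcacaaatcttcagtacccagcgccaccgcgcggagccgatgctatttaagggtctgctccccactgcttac
Cd79a: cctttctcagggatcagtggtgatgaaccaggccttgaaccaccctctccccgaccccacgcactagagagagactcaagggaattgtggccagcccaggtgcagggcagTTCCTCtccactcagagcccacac
Cd72: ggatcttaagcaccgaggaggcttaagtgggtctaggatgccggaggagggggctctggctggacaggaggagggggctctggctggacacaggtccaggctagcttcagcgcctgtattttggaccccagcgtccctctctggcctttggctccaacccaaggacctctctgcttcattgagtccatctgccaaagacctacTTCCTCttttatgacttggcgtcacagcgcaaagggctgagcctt
Btk: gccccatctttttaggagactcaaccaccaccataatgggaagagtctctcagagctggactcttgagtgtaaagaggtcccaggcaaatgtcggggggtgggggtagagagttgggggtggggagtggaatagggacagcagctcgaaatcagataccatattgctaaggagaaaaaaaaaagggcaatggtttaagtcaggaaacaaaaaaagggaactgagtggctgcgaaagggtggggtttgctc
The motifs were searched on both strands over the full 250 bases: CCCNNGGG (the core bound by EBF1, a B-lineage factor), ATTTGCAT (the octamer bound by OCT factors) and GAGGAA (a site type of PU.1, a factor of myeloid and B cells). GAGGAA stood in both Cd79a and Cd72, on the minus strand, with its first base at -140 in Cd79a and at -47 in Cd72 from the RefSeq start. It occurs in 23.3% of 32851 promoters of the same length. Neither Cr2 nor Btk held any of the 3 in this window. Of the members not printed, Cd22 held CCCNNGGG at -48 (11.8% of promoters hold it), Blnk held ATTTGCAT at -130 (1.60% of promoters), and Syk held GAGGAA at -9 on the plus strand before the second of its 2 RefSeq starts. A match describes letters only: Cd79a, which fell far, and Cd72, which did not pass the test, held the same one.

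Libraries held 72902118 to 79258116 counts. Replicates are separate animals, numbered here only to name them. Controls resembled each other far more than mutants did: the biological coefficient of variation was 17.1% between controls and 73.2% between mutants. The label spleen was borne out in the controls by B cell markers, whose 12 genes summed to 6227 to 7101 CPM (counts divided by the total of the library, on one common scale). In the mutants the same 12 genes summed to 130.4, 161 and 246 CPM, all 12 were lower by the test used below, and none was at 0 in any library. Mutants also differed in a sex marker: Xist stood at 1513 and 580 CPM in mutants 1 and 2 and at 0.586 CPM in mutant 3, against 0.423 to 0.663 CPM in controls. Sex and genotype therefore cannot be told apart for mutants 1 and 2.

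All 9 genes were lower in every mutant than in every control, and 7 of the 9 passed the test: Cr2, Cd79a, Blk, Cd22, Cd79b, Blnk and Syk. Cd72 and Btk did not pass. The test was edgeR's quasi-likelihood test with Benjamini-Hochberg adjustment over all 19573 genes at a threshold of 0.05. It called 6.9% of genes lower and 5.08% higher in mutants, and in 22.6% of genes all 3 mutants lay below all 3 controls. None of the 9 was higher, at an unadjusted p of 0.05 or in DESeq2 either. The median log2 fold change of the 9 was -5.10, beside 0.10 over all genes tested. In a piece of tissue, fewer cells of a type and less RNA per cell cannot be told apart.

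**Figure D1:**
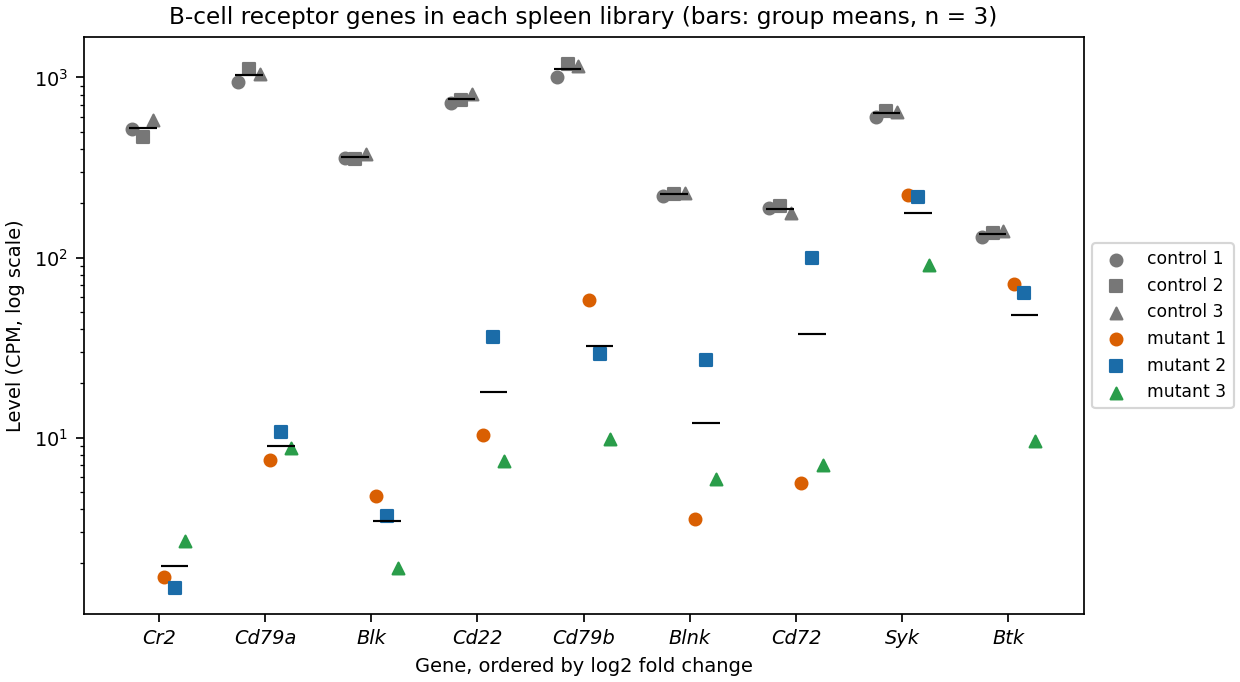
Level of each of the 9 genes in every library, in CPM on a log axis, with bars for the group means (n = 3); genes run from the largest to the smallest fall. Every mutant lies below every control for every gene, and the mutants are tight for Cd79a and Cr2 but spread for Cd72, where mutant 2 stands at 99.6 CPM.

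Cd79a (ENSMUSG00000003379, chr7:24897381-24902197, plus strand) stood at 943, 1115 and 1052 CPM in controls 1 to 3 and at 7.53, 10.7 and 8.73 CPM in mutants 1 to 3. Groups were far apart and the mutants close together, the highest being 1.42 times the lowest. Its mean fell from 1037 ± 87.2 to 8.98 ± 1.59 CPM (SD, n = 3), a log2 fold change of -6.83 ± 0.30 (SE, edgeR adjusted p = 0.000537). Cd79b (ENSMUSG00000040592, chr11:106311341-106314762, minus strand), its partner chain, measured 1012, 1195 and 1156 CPM in controls 1 to 3, against 58.2, 29.3 and 9.78 CPM in mutants 1 to 3. Mutant 1 was the highest here and mutant 3 the lowest, whereas Cd79a differed little among the same animals. The log2 fold change of Cd79b was -5.10 ± 0.71 (SE, edgeR adjusted p = 0.0135).

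Among the 3 surface modulators, Cr2 fell furthest of all 9 genes. Cr2 (ENSMUSG00000026616, chr1:195136811-195176716, minus strand) measured 521, 464 and 577 CPM in controls 1 to 3, against 1.69, 1.47 and 2.66 CPM in mutants 1 to 3. The mutants kept 0.324%, 0.281% and 0.510% of the control mean. Its log2 fold change was -8.07 ± 0.33 (SE, edgeR adjusted p = 0.000534), the 24th lowest of all genes tested. Follicular dendritic and reticular markers moved with it: 6 of 7 were lower, and their sum was 83.4, 133 and 133 CPM in mutants against 1799 to 2367 CPM in controls, with none at 0. Their part in the Cr2 value was not tested.

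Cd22 (ENSMUSG00000030577, chr7:30865402-30880342, minus strand) measured 724, 749 and 805 CPM in controls 1 to 3, against 10.4, 36.0 and 7.39 CPM in mutants 1 to 3. All mutants were far below the controls, with mutant 2 the highest. Its log2 fold change was -5.35 ± 0.76 (SE, edgeR adjusted p = 0.0142). Cd72 (ENSMUSG00000028459, chr4:43446462-43454628, minus strand) stood at 188, 192 and 178 CPM in the 3 controls, while its mutant levels were 5.60, 99.6 and 7.05 CPM. Mutants 1 and 3 kept 3.01% and 3.79% of the control mean, while mutant 2 kept 53.5%. Over all mutants the log2 fold change was -2.23 ± 1.17 (SE, edgeR adjusted p = 0.247), and without mutant 2 it was -4.91 (adjusted p = 0.000638).

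Mutant 2, the animal that retained Cd72, also stood apart in monocyte and macrophage markers. Their 12 genes summed to 9347 CPM in mutant 2, to 806 and 837 CPM in mutants 1 and 3, and to 1442 to 1957 CPM in controls, with no marker at 0. In mutant 1 Mrc1 alone gave 513 CPM and the other markers together 294 CPM, against 1580 CPM for those others in controls. Below their control means were 9 of the 12 in mutant 1, 0 in mutant 2 and 6 in mutant 3. Csf1r, the receptor for the macrophage growth factor, was at 1577 CPM in mutant 2 and at 40.0 and 78.5 CPM in mutants 1 and 3. The part of these cells in the Cd72, Cd22 and Blnk values of mutant 2 was not tested. Cd72 also shares 1603 bases with Tesk1 on the opposite strand, and whether the counting used strand is not given in the sources used here. Tesk1 was at 3.07, 13.3 and 9.46 CPM in mutants and at 12.2 to 17.9 CPM in controls.

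The 4 intracellular members split by how far they fell. Blk (ENSMUSG00000014453, chr14:63372836-63417037, minus strand), the SRC-family kinase largely made by B cells, measured 356, 352 and 378 CPM in controls 1 to 3, against 4.76, 3.67 and 1.88 CPM in mutants 1 to 3. Mutants kept 0.518% to 1.31% of the control mean, the same order of loss as Cd79a. Its log2 fold change was -6.70 ± 0.45 (SE, edgeR adjusted p = 0.00183). Blnk (ENSMUSG00000061132, chr19:40928927-40994535, minus strand), the adaptor, measured 221, 225 and 228 CPM in controls 1 to 3, against 3.53, 26.8 and 5.85 CPM in mutants 1 to 3. As for Cd22 and Cd72, mutant 2 was the highest, at 11.9% of the control mean. The log2 fold change of Blnk was -4.16 ± 0.87 (SE, edgeR adjusted p = 0.0337), and without mutant 3 its adjusted p was 0.0772.

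Syk (ENSMUSG00000021457, chr13:52583173-52648792, plus strand) measured 605, 652 and 646 CPM in controls 1 to 3, against 222, 217 and 90.4 CPM in mutants 1 to 3. Mutants 1 and 2 were alike and mutant 3 was lower, and the group kept 14.3% to 35.0% of the control mean. Its log2 fold change of -1.82 ± 0.39 (SE) was the smallest of the 7 that passed (edgeR adjusted p = 0.0359), and it did not pass a test against a 2-fold change (adjusted p = 0.165). Blnk did not pass that test either (adjusted p = 0.0783). Btk (ENSMUSG00000031264, chrX:134542336-134583570, minus strand) measured 129.9, 137 and 141 CPM in controls 1 to 3, against 71.2, 63.6 and 9.55 CPM in mutants 1 to 3. Mutants 1 and 2 kept 52.4% and 46.8% of the control mean and mutant 3 kept 7.03%. The log2 fold change was -1.47 ± 0.69 (SE, edgeR adjusted p = 0.208). Without mutant 3 Btk passed at a smaller fold (log2 fold change -0.97, adjusted p = 0.0227). Btk lies on the X chromosome, and among the mutants the 2 with more Btk were the 2 with high Xist. All controls had low Xist and more Btk than any mutant. The part of this pairing in the result was not tested.

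Markers of cells that use SYK and BTK outside the B lineage moved unevenly. Megakaryocyte and platelet markers (8 genes) summed to 3076, 1016 and 4659 CPM in mutants 1 to 3 against 323 to 601 CPM in controls, and 2 of the 8 were higher, although 2 markers in mutant 1 and 3 in mutant 3 were below their control means. Itga2b, the platelet integrin chain, was at 1920, 197 and 2944 CPM in mutants and at 77.0 to 136 CPM in controls. Mast cell and basophil markers (8 genes) summed to 712, 61.1 and 289 CPM in mutants against 56.8 to 62.8 CPM in controls. In mutant 1 Gata2, Fcer1a and Kit gave 399, 169 and 127 CPM, and 1 of the 8 markers was below its control mean. Cpa3, Ms4a2, Mcpt8 and Prss34 gave only 3.22, 4.86, 1.98 and 0.837 CPM there. In mutant 3 Gata2 and Kit gave 125 and 108 CPM, while 5 of the 8 markers were below their control means. Gata2 and Kit are also on the list of stem and progenitor markers used here. None of the 8 passed in edgeR. At an unadjusted p of 0.05, 3 were higher, and the share of all genes at that threshold was not computed. DESeq2 called 2 of the 8 higher. Over the whole table it called 5084 genes in either direction, of which 2640 were lower. In neither list was a marker at 0. Mutant 3 had the highest megakaryocyte sum and the lowest Syk and Btk, and the part of these cells in either level was not tested.

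**Figure D2:**
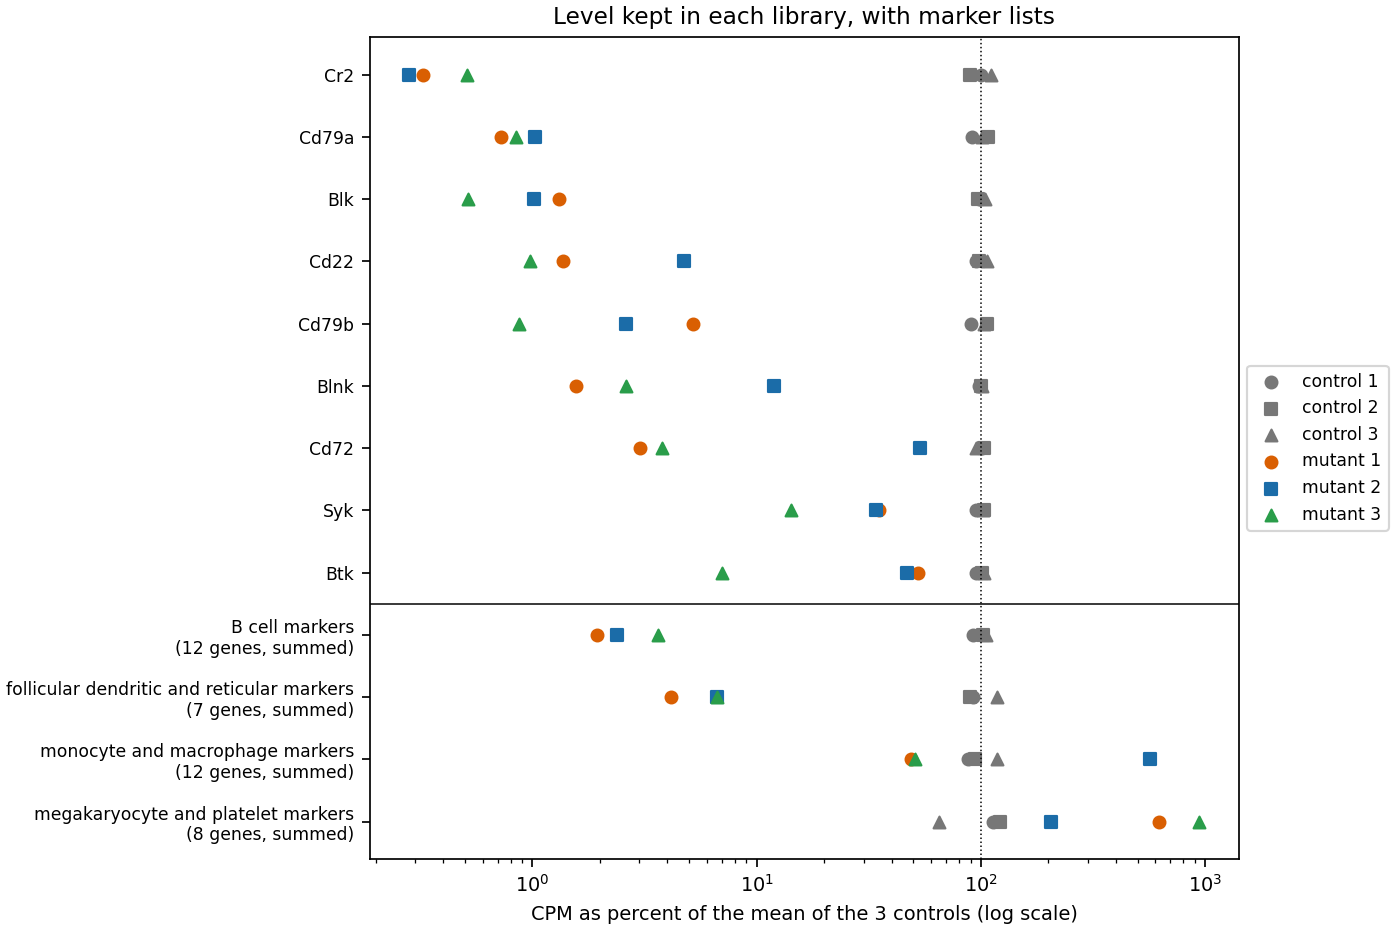
Level of each gene, and summed level of 4 marker lists, in every library as a percent of the mean of the 3 controls, on a log axis. Cr2, Cd79a and Blk lie near 1% or below in every mutant, Syk and Btk mostly above 10%, and the macrophage sum of mutant 2 and the megakaryocyte sums lie above 200%.

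The calls rested on different numbers of libraries. When any 1 control was left out, only Cr2, Cd79a and Blk passed, in a fit that called 0.636% (without control 1), 0.581% (without control 2) or 0.627% (without control 3) of genes lower. Without mutant 1, 7 members passed in a fit that called 9.47% of genes lower. Without mutant 2, 8 passed with Cd72 added, where 15.3% of genes were lower. Without mutant 3, 7 passed with Btk in and Blnk out, where 6.17% of genes were lower. Over 16 alternative fits, Cr2, Cd79a and Blk passed in all 16, Cd79b and Cd22 in 13, Syk in 12, Blnk in 11, Cd72 in 3 and Btk in 2. No member changed direction in these fits.

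Levels were compared between genes per kilobase of exon, and on that scale the order of the 9 differed between the groups. In controls the order ran from Cd79b at 783 ± 67.5 and Cd79a at 711 ± 59.8 CPM per kilobase (SD, n = 3), whose ranges overlapped, to Cd22 at 151 ± 8.23 and Blk at 134 ± 5.13. Syk at 67.8 ± 2.75 and Cr2 at 64.2 ± 6.97 CPM per kilobase overlapped as well. Cd72 followed at 54.4 ± 2.18, Btk at 43.2 ± 1.75 and Blnk at 37.5 ± 0.623 CPM per kilobase, and no other neighbours in this order overlapped.

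In mutants Cd79b, Syk and Btk led, at 22.6 ± 17.0, 18.9 ± 7.97 and 15.3 ± 10.7 CPM per kilobase. Cd72 was at 10.9 ± 15.7, Cd79a at 6.16 ± 1.09, Cd22 at 3.55 ± 3.12 and Blnk at 2.01 ± 2.14 CPM per kilobase. Blk at 1.27 ± 0.540 and Cr2 at 0.239 ± 0.0782 CPM per kilobase came last and were the only neighbours whose ranges did not overlap. Cr2, above Btk and Blnk in controls, was thus the lowest of the 9 in every mutant.

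Ratios of counts within a library need no scaling between libraries, and they show how unequal the falls were. The control mean of the log2 ratio of Cd79b to Cd79a was 0.11 ± 0.02 (SD, n = 3), and the mutants were at 2.95, 1.45 and 0.16. The 2 partner chains were thus near parity in controls and in mutant 3 and unequal in mutants 1 and 2. The log2 ratio of Syk to Cd79a was -0.71 ± 0.07 in controls and 4.88, 4.34 and 3.37 in mutants, a mean difference of 4.90. That of Btk was -2.93 ± 0.09 in controls and 3.24, 2.57 and 0.13 in mutants, a mean difference of 4.91. In every mutant both kinases had more counts than Cd79a, and in every control fewer.

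Against Cd79a, the log2 ratio of Cd72 was higher in mutants by a mean of 3.30, that of Blnk by 2.09 and that of Cd22 by 1.10, each with mutant 2 the highest. Cr2 differed in the other direction: its log2 ratio to Cd79a was -2.14, -2.84 and -1.71 in mutants, a mean difference of -1.23 from controls. Blk kept its proportion most closely, with mutants at -0.66, -1.53 and -2.20 around the control mean and a mean difference of 0.05. The groups did not overlap for 7 of the 8 ratios (exact 2-sided permutation p = 0.1, adjusted p = 0.114). A p of 0.1 is the smallest that 3 against 3 can give, so none could pass the threshold. Cd79a itself had a log2 fold change of -6.83, so a gene that fell less can separate in the same way. The share of all genes whose ratio to Cd79a separates the groups was not computed. The Blk ratio overlapped (exact permutation p = 0.9, adjusted p = 0.9). Against Cd79b in place of Cd79a the mean difference turned to -0.31 for Cd22 and to -1.36 for Blk.

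**Figure D3:**
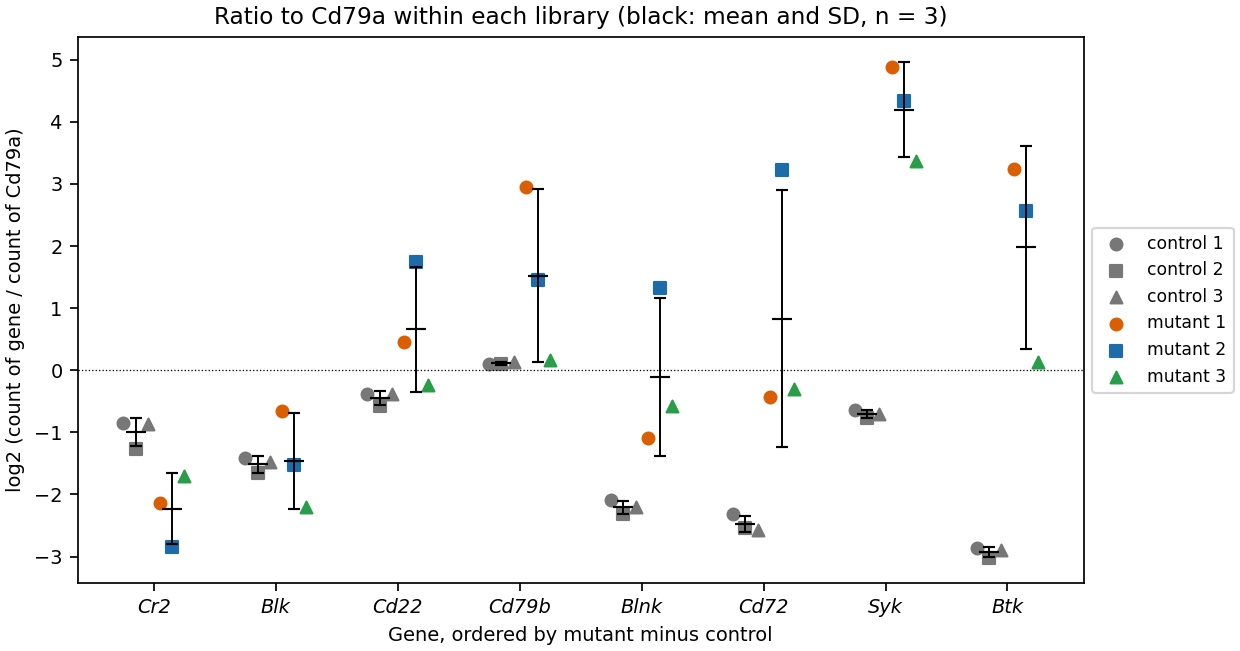
log2 ratio of each gene's count to the count of Cd79a in the same library, with black marks for the mean and SD of each group (n = 3). Syk and Btk lie above 0 in all mutants and below 0 in all controls, Blk overlaps, and Cr2 is lower in mutants.

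The other genes of the receptor pathway were taken from lists by role. Of 71 listed genes 68 were tested, and 21 were lower and 0 higher by edgeR, with a median log2 fold change of -0.99. At an unadjusted p of 0.05, 32 were lower and 3 higher, and the share of all genes at that threshold was not computed. DESeq2 called 28 lower and 1 higher. Over the whole table it called 2640 genes lower, out of 31771 with a count. That total keeps any gene that the filter of DESeq2 left without an adjusted p. The share is therefore not comparable with the edgeR share of 19573 genes tested. Beside the 6.9% of all genes called lower, the share by role ranged from 2 of 19 in the co-receptor group to 4 of 6 among receptor chains. With 1 library left out, between 10 and 36 of the pathway genes were lower. Of the pathway and family genes called lower and named below, Ighd, Iglc2, Iglc3, Vpreb3, Malt1, Itpr3, Siglecg and Fcrla passed whichever library was left out, Fcrl1 was lost without control 1 or control 2, and the others were lost without any 1 control.

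Among the antigen-binding chains 4 of 6 were lower. Ighd, the constant region of the delta heavy chain of mature naive B cells, fell from 1744 ± 173 to 20.5 ± 8.21 CPM (SD, n = 3), a log2 fold change of -6.38 ± 0.44 (SE, edgeR adjusted p = 0.00214). The lambda chains Iglc2 and Iglc3 had log2 fold changes of -5.80 ± 0.57 (adjusted p = 0.00656, edgeR) and -6.17 ± 0.62 (adjusted p = 0.00683, edgeR). The kappa chain Igkc, which plasma cells also make in bulk, fell less, from 8250 ± 775 to 1085 ± 890 CPM (log2 fold change -2.88 ± 0.68, edgeR adjusted p = 0.0454). Plasma cell markers (7 genes) summed to 180, 470 and 277 CPM in mutants 1 to 3 against 1454 to 1851 CPM in controls. By edgeR 2 of the 7 were lower, and 6, 5 and 6 were below their control means in mutants 1 to 3. The part of plasma cells in the Igkc value was not tested. Ighm and Iglc1 did not pass. Ighm stood at 381, 4187 and 411 CPM in mutants against a control mean of 8659 ± 771, and Iglc1 at 2.74, 212 and 6.50 CPM against 276 ± 55.8 (edgeR adjusted p = 0.192 and 0.463), so mutant 2 was again the highest in both. Without mutant 2 both passed, with log2 fold changes of -4.48 and -5.94 (edgeR adjusted p = 0.000461 and 0.00411). Igkc was lost without mutant 3 (edgeR adjusted p = 0.103). Iglc2 and Iglc3 are near-identical copies, so the split of reads between these 2 genes is uncertain. Of the genes for the surrogate receptor and for rearrangement, 4 of 7 were tested and 2 were lower, Vpreb3 (57.3 ± 8.74 to 0.929 ± 0.242 CPM, log2 fold change -5.94, edgeR adjusted p = 0.000769) and Rag1, a recombinase subunit with only 23 to 80 counts per control and 2 to 6 per mutant.

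In the co-receptor and the steps next to the receptor, 2 of 19 were lower. Cd81, which joins CR2 at the surface and is made by many cell types, stood at 131, 276 and 150.0 CPM in mutants against 171 ± 10.7 in controls (edgeR adjusted p = 0.796). The B-cell scaffold Bank1 had a log2 fold change of -4.20 ± 0.90 (SE, edgeR adjusted p = 0.0358), with mutant 2 at 39.9 CPM and the others at 6.47 and 6.02, and it was lost without mutant 3 (edgeR adjusted p = 0.0660). Lyn, the other main SRC-family kinase of the receptor and also a myeloid kinase, stood at 128, 359 and 129.5 CPM in mutants against 294 ± 25.8 in controls (edgeR adjusted p = 0.541), and it passed without mutant 2 (log2 fold change -1.22, adjusted p = 0.00463). Plcg2, the phospholipase that BTK activates, stood at 337, 77.8 and 129 CPM against 221 ± 27.0 (edgeR adjusted p = 0.732), and it passed without mutant 1 (log2 fold change -1.07, adjusted p = 0.0383). Dapp1 and Pik3cd, an adaptor and a catalytic subunit of phosphoinositide signalling, were high in mutant 1 alone, at 379 and 989 CPM against control means of 75.5 and 366. The fitted change of Dapp1 and Pik3cd turned from above to below 0 without mutant 1, and that of Cd81 without mutant 2.

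Of the downstream genes 7 of 20 were lower. Malt1, a protease on the way to NF-kappa-B, fell from 139 ± 18.0 to 18.4 ± 3.98 CPM (SD, n = 3; log2 fold change -2.90, edgeR adjusted p = 0.00384). The calcium channel Itpr3 fell from 203 ± 18.4 to 36.1 ± 2.14 CPM (log2 fold change -2.48, edgeR adjusted p = 0.00153). The transcription factors Foxo1, Rel, Relb and Nfatc1 had log2 fold changes of -2.77, -2.47, -2.14 and -1.89 (edgeR adjusted p = 0.00944, 0.0452, 0.00941 and 0.0164), of which Rel was also lost without mutant 1 (adjusted p = 0.0522). Prkcb, a protein kinase C of B cells, did not pass at 4.14, 52.8 and 8.91 CPM in mutants against 249.6 ± 6.61 in controls (edgeR adjusted p = 0.0774), but passed without mutant 2 (log2 fold change -5.29, adjusted p = 0.00311). Akt1, a kinase of most cells, stood at 268 ± 32.6 CPM in mutants and 168 ± 7.15 in controls (edgeR adjusted p = 0.0506), and it is the gene that DESeq2 called higher. It passed in edgeR without any 1 mutant (log2 fold change 0.61 to 0.77).

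Inhibitory genes other than Cd22 and Cd72 were lower in 6 of 19. Siglecg, a lectin related to CD22, fell from 460.2 ± 48.0 to 8.29 ± 3.79 CPM (SD, n = 3; log2 fold change -5.79, edgeR adjusted p = 0.00208). The Fc receptor-like genes Fcrla, Fcrl1 and Fcrl5 had log2 fold changes of -6.23, -4.90 and -4.26 (edgeR adjusted p = 0.00233, 0.00720 and 0.0114). Cd5 and Lax1, both also made by T cells, had log2 fold changes of -3.97 and -3.40 (edgeR adjusted p = 0.0436 and 0.0205), and Cd5 was lost without mutant 1 or mutant 3 (adjusted p = 0.0512 and 0.0827). T cell markers, 8 genes with none at 0, summed to 33.1, 307 and 574 CPM in mutants against 659 to 804 in controls. In mutant 3 Lat alone gave 559 CPM and the other 7 markers together 15.1 CPM, against 611 CPM for those 7 in controls. In mutant 2 Cd4 gave 197 CPM and the other 7 markers 109.7 CPM. Apart from Cd4 in mutant 2 and Lat in mutant 3, every marker of this list was below its control mean in every mutant. The part of T cells in the Cd5 and Lax1 values was not tested. Fcgr2b, the inhibitory Fc receptor of B cells and macrophages, was highest in mutant 2 as Cd72 was, but there it stood above the controls, at 26.3, 452 and 29.8 CPM in mutants against 114 ± 4.26 in controls (edgeR adjusted p = 0.728). With mutant 2 left out, Fcgr2b was called lower (log2 fold change -2.06, adjusted p = 0.00158). Ptpn6, the phosphatase that CD22 and CD72 recruit, stood at 384, 251 and 86.3 CPM against 644 ± 47.6 (edgeR adjusted p = 0.133).

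**Figure D4:**
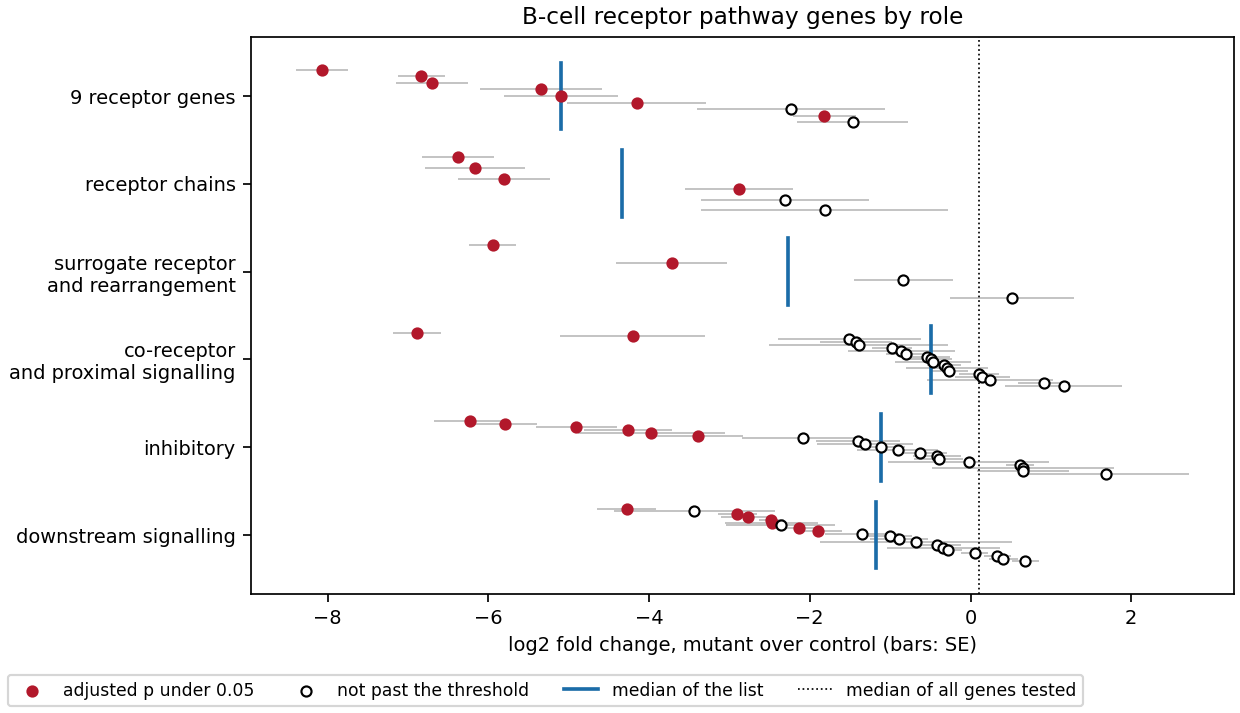
log2 fold change of the receptor pathway genes (mutant over control, bars are SE), grouped by role, with marks for the genes that passed edgeR's test. Receptor chains lie mostly below -2. The co-receptor and proximal group has a median of -0.50, beside 0.10 over all genes tested, and 2 of its genes passed, Bank1 among them.

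Relatives of the members in the same families differed in how far they moved. Of 7 other SRC-family kinases 1 was lower, Lck, the T-cell member, from 169 ± 17.3 to 18.4 ± 7.24 CPM (SD, n = 3; log2 fold change -3.17, edgeR adjusted p = 0.00907). Of 4 other TEC-family kinases 2 were lower, Tec (88.6 ± 3.51 to 18.8 ± 9.24 CPM, edgeR adjusted p = 0.0219) and Txk (log2 fold change -3.94, edgeR adjusted p = 0.0359; adjusted p = 0.0637 without mutant 1). Zap70, the T-cell relative of Syk, stood at 2.55, 14.3 and 1.39 CPM in mutants against 48.7 ± 9.12 and did not pass (edgeR adjusted p = 0.0940), but did without mutant 2 (log2 fold change -4.65, adjusted p = 0.00375). Lcp2, which takes the place of BLNK in T cells, platelets and mast cells, stood at 131 ± 47.8 CPM in mutants and 93.4 ± 6.89 in controls (edgeR adjusted p = 0.323), and passed as higher without mutant 1 (log2 fold change 0.80, adjusted p = 0.0205).

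The ITAM adaptors Fcer1g and Tyrobp, through which SYK signals in myeloid cells, did not pass. Fcer1g stood at 55.0, 833 and 68.6 CPM and Tyrobp at 103, 544 and 57.5 CPM in mutants, against 114 ± 15.7 and 108 ± 13.4 in controls (edgeR adjusted p = 0.372 and 0.385). Both were highest in mutant 2, the animal with the high macrophage sum, and without it their log2 fold changes were -0.91 and -0.46 (edgeR adjusted p = 0.0191 and 0.275). Of the 7 ITAM adaptors 1 was lower, Cd247 of the T-cell receptor (log2 fold change -3.32, edgeR adjusted p = 0.0364; adjusted p = 0.0909 without mutant 3). Among 8 other complement receptors and regulators 1 was lower, Cd55, a decay-accelerating factor, from 198 ± 20.5 to 52.7 ± 21.7 CPM (edgeR adjusted p = 0.0164).

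For each member up to 3 genes with the most similar pattern are given, taken from 15133 genes, by the Euclidean distance of centred log2 CPM over the 6 libraries, where 0 is identity. Cd79a was closest to Ffar1 (0.22), Ly6d (0.48) and the follicle-homing receptor gene Cxcr5 (0.49), and the genes nearest to Blk included Lrat (0.47) and Chst3 (0.63). Cr2 had no very near neighbour: its closest were Fcer2a (1.04), which encodes the IgE receptor of B cells and follicular dendritic cells, Ms4a1 (1.13), which encodes CD20, and Fcamr (1.17). Cd22 was closest to H2-DMb2 (0.56), Srpk3 (0.58) and Tnfrsf13c (0.66), and Cd79b to AF067061 (0.55), Mybpc2 (0.81) and H2-Ob (0.82). AF067061 was near the floor, at 0.0823, 0.0403 and 0 CPM in mutants 1 to 3. Ffar1, Lrat, Fcamr and Mybpc2 were also below 1 CPM in every mutant, so distances to these genes rest on low counts.

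Blnk and Cd72 were, like Cd22, highest in mutant 2, and had other neighbours. Blnk was closest to Irf4 (0.29), a factor of activated B cells and plasma cells that stood at 1.74, 16.2 and 3.24 CPM in mutants, then to Cd5 (0.41) and Cxcl13 (0.45). Cd72 was closest to Chrna6 (0.46), to the activation marker Cd83 (0.54), which stood at 5.06, 85.8 and 5.37 CPM in mutants, and to Cd209c (0.57). Chrna6 stood at 0, 0.376 and 0 CPM and Cd209c at 0, 0.565 and 0.0130 CPM in mutants 1 to 3. Both were near the floor, so these 2 distances rest on low counts. The genes nearest to Syk included Lpgat1 (0.19) and Dact1 (0.30), and those nearest to Btk included Klrb1b (0.36) and Bcl9 (0.38). Klrb1b was low as well, at 0.946, 0.686 and 0.104 CPM in mutants 1 to 3.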

How the data were processed

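Poly-A selected, strand-marking libraries were prepared from total RNA of frozen spleen pieces, per the labels' protocols. The table the authors deposited gives raw counts, as integers, for each Ensembl identifier. Per the submitters' processing notes, STAR 2.5.3a, limma, mm10 and GRCm38 are listed with no role. Not given in the sources used here are the annotation release, the strand setting and the treatment of multi-mapping reads.

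Members were matched by symbol (31669 of 31771 identifiers had one), with coordinates from the GENCODE M21 annotation of GRCm38. The test was edgeR 4.0.16 (R 4.3.3) with TMM factors, its expression filter, robust fitting, the quasi-likelihood F test and Benjamini-Hochberg adjustment over 19573 genes. Each SE was taken as the absolute log2 fold change over the root of F. CPM used the plain totals of the deposited counts, with no TMM factors. Count ratios (prior count 2) were compared by exact 2-sided permutation with 8 tests. Alternatives used limma 3.58.1 and DESeq2 1.42.0. No library was a repeat of another: pairs of controls gave a chi-square of at least 22.0 per gene, and pairs of mutants at least 738.

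Members and lists were chosen with earlier results of these data known. Genes were named by a rule: all members, the 3 genes with the smallest p of each pathway or family list with a passing gene (otherwise its most abundant gene), up to 2 abundant genes of each marker list, and the 3 nearest patterns of each member. Igkc, Ighm, Iglc1, Cd81, Lyn, Plcg2, Dapp1, Pik3cd, Foxo1, Rel, Relb, Nfatc1, Prkcb, Akt1, Fcrl5, Cd5, Lax1, Fcgr2b, Ptpn6, Fcer1g, Tyrobp and Tesk1 were named after their values were seen where the rule does not name them. Protein sequences of the members were not used here, and some genes that the rule takes are not reported here.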

Additional observations from a re-analysis of the deposited data

How the results depend on the processing

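The number of members called lower was 7 and ranged from 3 to 8 when 1 library was left out. No paired analysis was possible because the labels give no replicate numbers shared between mutants and controls. The 21 pathway genes called lower became 39 with limma-voom sample weights and 10 to 36 when 1 library was left out. The 0 called higher became 1 with a filter of at least 1 CPM in 3 libraries, in DESeq2, in limma-voom and with sample weights, each time Akt1, and 0 to 3 when 1 library was left out. Upper-quartile scaling moved the median log2 fold change of all genes from 0.10 to 0.00 and the share of calls that were lower from 57.6% to 66.7%; that share was 66.6% in limma-voom and 86.1% against a 2-fold change, and 94.1% to 96.7% without any 1 control. Calls over all genes numbered 2346, and 5084 in DESeq2, 3651 with sample weights, 1461 with a variance per group, 628 against a 2-fold change and 123 to 5931 with 1 library left out. Blnk and Syk were lost against a 2-fold change. Cd72 passed with sample weights (adjusted p = 0.00858) and with a variance per group (adjusted p = 0.0432), and Btk with sample weights (adjusted p = 0.0197). Direction turned for 7 other genes, none of which passed with all libraries, and the cause was not tested. Log2 fold changes with sample weights were -0.12 for Cd81, -0.22 for Fcer1g, -1.37 for Fcgr2b, -0.95 for Pik3cd and -0.20 for Tyrobp. Without mutant 2 they were -0.32 for Cd81, -0.91 for Fcer1g, -2.06 for Fcgr2b, -0.46 for Tyrobp and 0.052 for Plcg2. Without mutant 1 they were -0.19 for Dapp1 and -1.16 for Pik3cd. With 1 library left out their highest values were 0.37 for Cd81, 1.56 for Dapp1, 2.08 for Fcer1g, 1.18 for Fcgr2b, 0.72 for Pik3cd and 1.66 for Tyrobp, and the lowest for Plcg2 was -1.07. In limma-voom they were -0.70 for Fcgr2b and -0.39 for Pik3cd, and with a variance per group -0.71 and -0.39. The mean difference of the Blk ratio ranged from -0.35 to 0.42 with 1 library left out, and was -1.36 against Cd79b, where that of Cd22 was -0.31. Depth was not a limit for the members, while Rag1 and the other rearrangement genes had few counts.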
